A study of Sus scrofa with 6 samples.

Results

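The genes described here are LIF, the other cytokines of the IL6 family with their receptors and relay, and the colony stimulating factors, in the oviduct ampulla of the pig (Sus scrofa). The members were chosen by name: the cytokines LIF, IL6, CSF1 and CSF2, the receptor chains LIFR, IL6R, IL6ST and OSMR, the transcription factor STAT3 and its inhibitor SOCS3. All 10 had a row, each a single row, in a table of 35670 Ensembl genes. The ampulla is the part of the oviduct in which eggs are fertilised, and RNA of the whole tissue was sequenced. Of the 6 libraries, 3 came from the early luteal stage, after the corpora lutea form, and 3 from the post-ovulatory stage, just after the eggs are released. All are labelled female and no treatment is named; the labels give neither strain nor age. Nor do they say whether the replicates of a stage were different animals. The tests below therefore weigh differences against the spread of these libraries, and that spread may be technical.

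Cytokines of the IL6 family act through a shared receptor chain, gp130, which IL6ST encodes. LIF joins LIFR to gp130, IL6 binds IL6R before it meets gp130, and oncostatin M uses OSMR with gp130. Janus kinases bound to these chains then phosphorylate STAT3, which enters the nucleus and among other targets switches on SOCS3, a feedback inhibitor that binds gp130. LIF is required for implantation in mice. CSF1 drives the survival of macrophages through its receptor CSF1R, and CSF2, also called GM-CSF, acts on myeloid cells and on early embryos.

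None of the 10 genes differed between the stages beyond the spread of the libraries. SOCS3 stood apart most. Its mean was 44.9 ± 37.8 CPM in the early luteal ampulla, against 17.1 ± 8.14 CPM in the post-ovulatory one (SD, n = 3 each), but this rested on a single early luteal library. CPM are counts relative to the library total, here scaled by the TMM method. The 4 receptor chains had mean levels 1.16 to 1.45 times as high in early luteal as in post-ovulatory tissue, with overlapping libraries. LIF and IL6 were scarce, at no more than 3.17 CPM in any library, and CSF2 was at or near the limit of counting. STAT3 had at least 694 counts in every library and nearly equal means at the 2 stages. In whole tissue, fewer cells of a type and less RNA per cell cannot be told apart.

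Of the 10 genes, 9 passed the filter on low counts and CSF2 did not. In edgeR's quasi-likelihood test over 17920 genes, 0 of the 9 passed an adjusted p of 0.05, where 0% of all genes tested did, and 0 of the 9 had an unadjusted p under 0.05, where 7.11% of all genes did (3.57% higher and 3.54% lower in early luteal tissue). DESeq2 called 0 of them and 0.986% of all genes, and gave 1 of them, SOCS3, an unadjusted p under 0.05 (0.032; adjusted p = 0.415). Limma voom called 0 of the 9 and 0% of all genes, and with sample quality weights 0 of the 9 and 0.0558% of all genes. In none of the 9 were the libraries of the stages apart, where 17.2% of all genes tested did not overlap. The median log2 fold change of the 9 (early luteal over post-ovulatory) was 0.21, with 8 above 0 and 1 below. Over all genes tested the median was -0.026, with 8634 of 17920 above 0. Of the members above 0, IL6 (0.0063), STAT3 (0.086) and CSF1 (0.13) changed sign under 7, 4 and 2 of 15 alternative settings.

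Library totals ran from 7370723 to 30954222 counts. Early luteal replicate 2 stood apart from the others. Of 15286 genes with at least 10 counts in each of the other 5 libraries, 515 (3.37%) had no count in it. The corresponding share was 0.0565% or less in each other library, including post-ovulatory replicate 2, which had the lower total. After TMM scaling these 2 libraries were close in depth, a count of 3 being 0.379 CPM in post-ovulatory replicate 2 and 0.406 CPM in early luteal replicate 2. Several fold changes described here moved when early luteal replicate 2 was left out. Epithelial markers were present in all libraries (EPCAM, 385 to 1093 CPM; FOXJ1 of ciliated cells, 79.3 to 654 CPM), as was the smooth muscle gene MYH11 (493 to 4766 CPM).

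**Figure D1:**
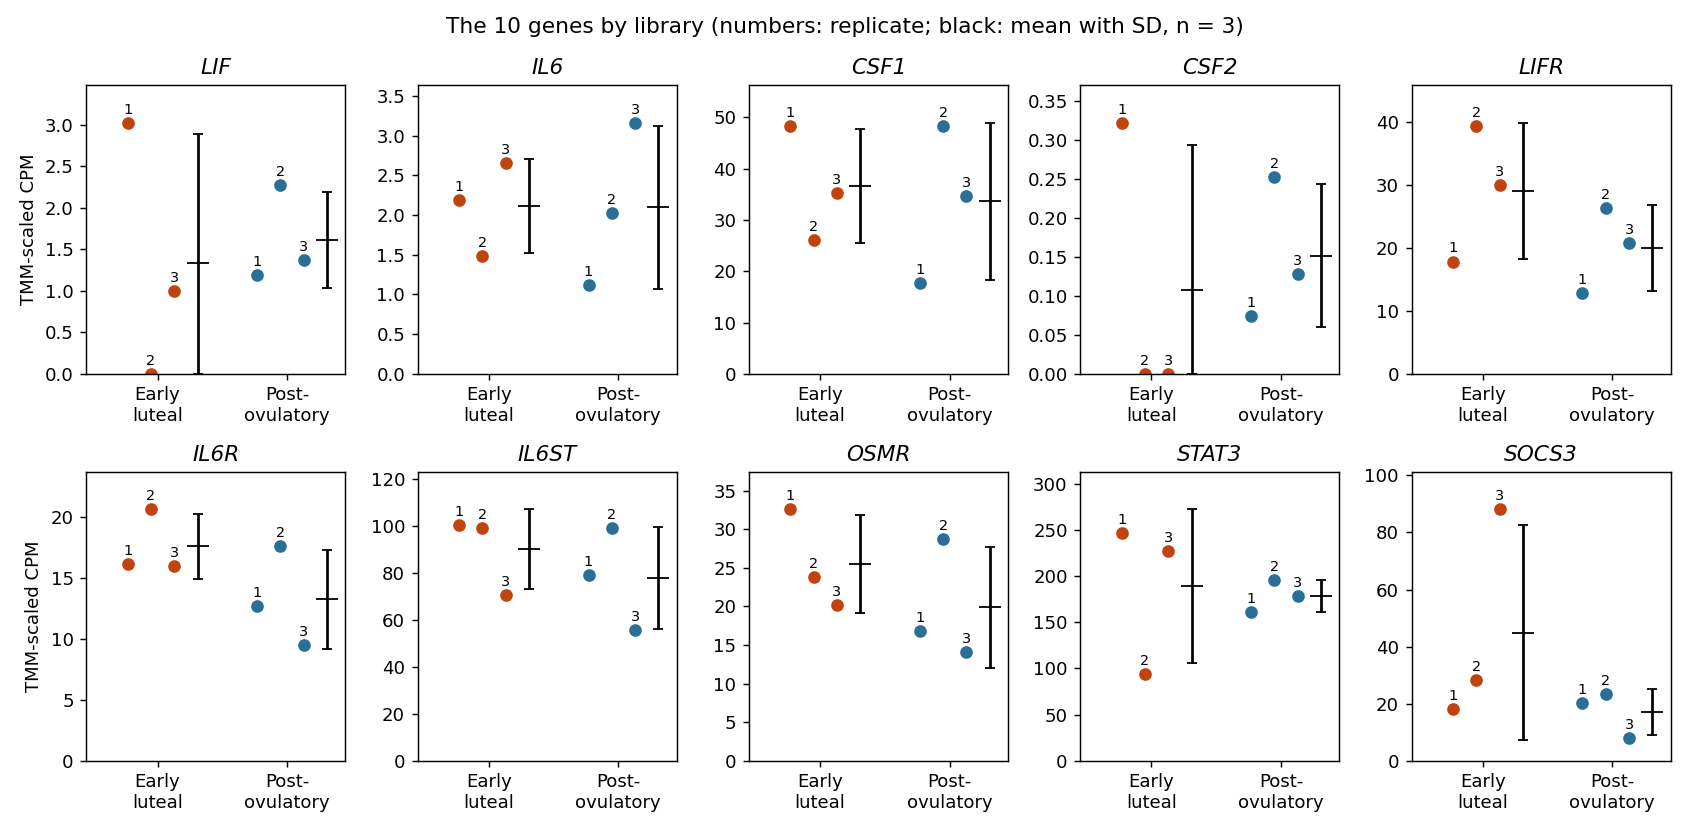
TMM-scaled CPM (vertical axes, each from 0) of the 10 genes in the 3 early luteal (left, orange) and 3 post-ovulatory libraries (right, blue), numbered by replicate, with the mean and SD of each stage in black, the SD bar ending at 0 where it would go below. The stages overlap in every panel, the 88.1 CPM of early luteal replicate 3 stands alone in SOCS3, and early luteal replicate 2 is at 0 for LIF.

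LIF (ENSSSCG00000040961; chr14:47221540-47239513, Sscrofa11.1, per RefSeq) gave 3.03, 0 and 0.997 CPM in early luteal replicates 1, 2 and 3, against 1.19, 2.27 and 1.37 CPM in the post-ovulatory ones. These levels rest on 47, 0 and 15 counts against 16, 18 and 43 counts. The early luteal stage thus held both the highest and the lowest library, and the post-ovulatory libraries lay between them. In early luteal replicate 1 the 95% exact Poisson interval, which covers counting error only, was 2.22 to 4.03 CPM, and in early luteal replicate 3 it was 0.558 to 1.65 CPM. Counting error alone therefore does not span the spread within the early luteal stage. The 0 counts of early luteal replicate 2 allow a level of up to 0.406 CPM, taking a count of 3 as the limit. LIF is among the 515 genes that had no count in that library alone. Its log2 fold change was -0.21 ± 1.09 (SE), with a 95% interval of -2.70 to 2.29 (edgeR, adjusted p = 0.972). Leaving out early luteal replicate 2 gave 0.34 (adjusted p = 0.904), leaving out post-ovulatory replicate 2 gave 0.074, and leaving out early luteal replicate 1 gave -1.53, so its sign and size both depended on single libraries.

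IL6 (ENSSSCG00000020970; chr9:91506421-91510830) gave 2.19, 1.49 and 2.66 CPM in early luteal replicates 1 to 3, against 1.12, 2.02 and 3.17 CPM in the post-ovulatory ones, from 34, 11 and 40 counts against 15, 16 and 99. Here the post-ovulatory stage was the more spread, and all early luteal libraries fell within its range. The counting intervals of post-ovulatory replicate 3 (2.57 to 3.85 CPM) and replicate 1 (0.625 to 1.84 CPM) did not meet. The means were nearly the same (2.11 ± 0.588 CPM in early luteal against 2.10 ± 1.03 CPM in post-ovulatory tissue), and the log2 fold change was 0.0063 ± 0.65 (95% interval -1.48 to 1.49; edgeR, adjusted p = 0.998). Early luteal levels from 0.359 to 2.81 times the post-ovulatory level lie within that interval. With single libraries left out the log2 fold change ran from -0.31 to 0.45.

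Of 7 further ligand genes of the family, 5 passed the filter and 0 were called (edgeR; 0 at an unadjusted p under 0.05). CTF1, which encodes cardiotrophin 1, was the most counted of them, with 10.05, 9.48 and 13.9 CPM in early luteal against 3.57, 9.35 and 8.98 CPM in post-ovulatory replicates. Its stages did not overlap, a pattern with early luteal above that 7.61% of all genes tested show, and the nearest libraries were 9.48 and 9.35 CPM. The log2 fold change of CTF1 was 0.61 ± 0.50 (adjusted p = 0.792) and was 0.27 without post-ovulatory replicate 1.

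OSM, which encodes oncostatin M, lies next to LIF, with 3253 bases and 0 annotated genes wholly between them. RefSeq places another gene over at least part of OSM. OSM had 1.80, 0 and 1.46 CPM in early luteal against 0.223, 2.91 and 1.98 CPM in post-ovulatory replicates. CLCF1, a ligand of the CNTF receptor, had 2.77, 0.135 and 2.99 against 1.04, 3.41 and 2.62 CPM. Like LIF, both were lowest in early luteal replicate 2. CNTF, the ciliary neurotrophic factor (6.38, 0.677 and 6.45 against 6.78, 5.18 and 3.93 CPM), and EBI3, a subunit of IL27 (1.61, 0 and 0.665 against 0.372, 3.03 and 1.34 CPM), were lowest there as well. The log2 fold changes of OSM, CLCF1, CNTF and EBI3 were -0.58, -0.23, -0.22 and -0.96, none of them called. Without early luteal replicate 2 they were -0.042, 0.30, 0.28 and -0.43, so those of CLCF1 and CNTF changed sign. Leaving out post-ovulatory replicate 2 also brought OSM to -0.031, EBI3 to -0.17 and CLCF1 to 0.094, while leaving out early luteal replicate 1 brought OSM to -1.09 and EBI3 to -2.03. IL11 had 3 counts in all 6 libraries together. IL27 also stayed below the filter, with 7, 0 and 4 counts in early luteal against 5, 10 and 58 counts in post-ovulatory replicates.

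**Figure D2:**
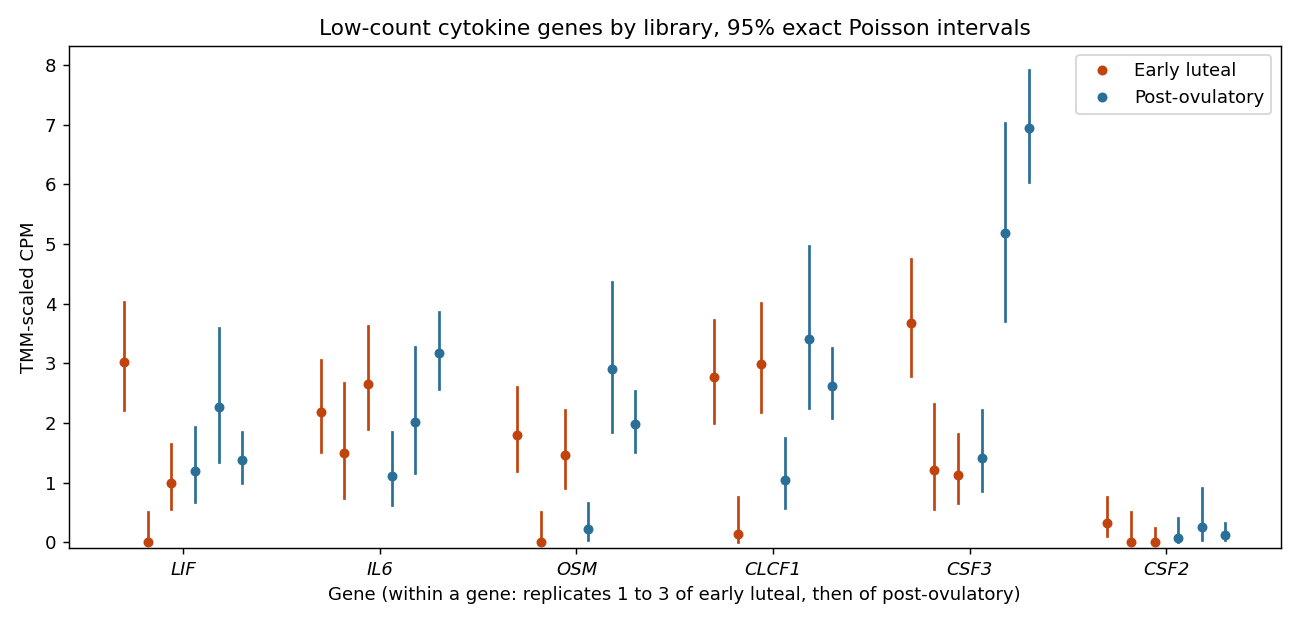
TMM-scaled CPM (vertical axis) of 6 cytokine genes with low counts, each with early luteal replicates 1 to 3 (orange) left of post-ovulatory replicates 1 to 3 (blue), the bars being 95% exact Poisson intervals of the counts. LIF, OSM and CLCF1 sit at 0 to 0.135 CPM in early luteal replicate 2, and the intervals of CSF2 all end below 1 CPM.

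The receptor chains were well counted, with at least 139 counts in every library. LIFR (ENSSSCG00000016850), the LIF-binding chain, gave 17.8, 39.4 and 30.0 CPM in early luteal against 12.9, 26.4 and 20.8 CPM in post-ovulatory replicates. The highest library was early luteal replicate 2 and the lowest post-ovulatory replicate 1, and early luteal replicate 1 lay inside the post-ovulatory range. Its log2 fold change was 0.54 ± 0.41 (95% interval -0.40 to 1.48; edgeR, adjusted p = 0.779). With single libraries left out it ran from 0.26 (early luteal replicate 2) to 0.82 (early luteal replicate 1).

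IL6R (ENSSSCG00000027628; chr4:95322426-95381393), the chain specific to IL6, gave 16.1, 20.6 and 15.96 CPM in early luteal against 12.7, 17.6 and 9.46 CPM in post-ovulatory replicates. Only post-ovulatory replicate 2 reached the early luteal range. The log2 fold change was 0.41 ± 0.38 (95% interval -0.45 to 1.27; edgeR, adjusted p = 0.808), and from 0.23 to 0.66 with single libraries left out. OSMR (ENSSSCG00000016851; chr16:24041312-24101842), the oncostatin M chain, gave 32.6, 23.8 and 20.2 CPM against 16.8, 28.8 and 14.1 CPM. Again post-ovulatory replicate 2 lay within the early luteal range and the other post-ovulatory libraries below it. The log2 fold change of OSMR was 0.37 ± 0.38 (95% interval -0.51 to 1.24; edgeR, adjusted p = 0.833). It was 0.17 without early luteal replicate 1, 0.18 without post-ovulatory replicate 3 and 0.72 without post-ovulatory replicate 2.

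IL6ST (ENSSSCG00000016916; chr16:35101304-35151832), the shared gp130 chain, gave 101, 99.4 and 70.5 CPM in early luteal against 79.1, 99.1 and 55.8 CPM in post-ovulatory replicates. In each stage replicate 3 was the lowest, and the stages overlapped over most of their range. Its log2 fold change was 0.21 ± 0.30 (95% interval -0.47 to 0.88; edgeR, adjusted p = 0.877), the narrowest interval of the 9 genes tested, which ends at 1.85-fold higher. Leaving out single libraries gave 0.028 (post-ovulatory replicate 3) to 0.41 (post-ovulatory replicate 2). RefSeq places a long non-coding RNA gene across IL6ST and 2 others across parts of OSMR, and as the strand setting of the counting is not given here, reads from those overlaps are uncertain. The log2 fold changes of LIFR, IL6R, IL6ST and OSMR were above 0 under all 15 alternative settings tried, and none was called under any.

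The count ratio of 2 receptor genes within a library does not depend on scaling. LIFR over IL6ST was 0.177, 0.396 and 0.425 in early luteal and 0.163, 0.266 and 0.372 in post-ovulatory replicates, so replicate 1 had the lowest ratio in each stage and the stages overlapped. IL6R over IL6ST was steadier, at 0.160, 0.207 and 0.226 against 0.160, 0.177 and 0.170. Among the other receptors of the family, IL11RA stood at 67.7 ± 29.1 CPM in early luteal against 61.3 ± 8.65 CPM in post-ovulatory tissue. IL27RA stood at 20.8 ± 13.2 against 33.6 ± 3.39 CPM, its early luteal replicate 2 being at 7.45 CPM (log2 fold change -0.69, and -0.29 without that library), and CNTFR was at 1.20 CPM or less throughout. None of these 3 was called (edgeR, lowest adjusted p = 0.77; 0 at an unadjusted p under 0.05).

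STAT3 (ENSSSCG00000017403; chr12:20407316-20471091), the transcription factor that these receptors activate, gave 247, 94.0 and 227 CPM in early luteal against 161, 196 and 179 CPM in post-ovulatory replicates. The post-ovulatory libraries lay close together, 2 early luteal libraries lay above all of them, and early luteal replicate 2 lay below all of them. The log2 fold change was 0.086 ± 0.37 (95% interval -0.76 to 0.93; edgeR, adjusted p = 0.966). Without early luteal replicate 2 it was 0.41 (adjusted p = 0.613). RNA levels do not report the phosphorylation by which STAT3 is activated.

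The kinases and partners around STAT3 were examined as a list of 7 genes, all tested and none called (edgeR; median log2 fold change 0.045, with 4 above 0 and 3 below). JAK1, JAK2 and the adaptor GAB1 each had all early luteal libraries above all post-ovulatory ones, 3 of the 7 genes, where 7.61% of all genes tested did. JAK2 gave 28.9, 49.7 and 27.5 CPM in early luteal against 18.5, 20.7 and 17.0 CPM in post-ovulatory replicates (log2 fold change 0.91 ± 0.33; unadjusted p = 0.0242, adjusted p = 0.68). Early luteal replicate 2 was the highest, and without it the log2 fold change of JAK2 was 0.59 (adjusted p = 0.599). JAK1, the kinase with the most counts, gave 180, 306 and 211 CPM against 175, 157 and 160 CPM (0.50 ± 0.28; adjusted p = 0.716), and without early luteal replicate 2 its log2 fold change was 0.25. GAB1, which links gp130 to the MAP kinase path, gave 112, 112 and 100.1 CPM against 49.8, 75.7 and 79.8 CPM (0.66 ± 0.26; unadjusted p = 0.0364, adjusted p = 0.685).

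STAT5A, a relay of growth hormone and prolactin signals, stood at 12.3 ± 8.32 CPM in early luteal against 21.6 ± 4.57 CPM in post-ovulatory tissue, with overlapping libraries (log2 fold change -0.81 ± 0.61; edgeR, adjusted p = 0.779). Its early luteal replicate 2 was at 2.85 CPM, and without it the log2 fold change was -0.35. TYK2 (89.8 ± 33.9 against 87.2 ± 20.6 CPM), STAT5B (75.0 ± 31.2 against 81.5 ± 19.4 CPM) and the phosphatase gene PTPN11 (105 ± 49.9 against 114 ± 35.1 CPM) had nearly equal means.

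SOCS3 (ENSSSCG00000036956; chr12:3643832-3647015), the feedback inhibitor, gave 18.2, 28.3 and 88.1 CPM in early luteal against 20.03, 23.4 and 7.90 CPM in post-ovulatory replicates. Early luteal replicate 3 was far above every other library and post-ovulatory replicate 3 below every other one, while the remaining 4 libraries lay together across the stages. The log2 fold change was 1.40 ± 0.64 (95% interval -0.065 to 2.87; edgeR, unadjusted p = 0.0587, adjusted p = 0.685), the largest of the 9 genes. Without early luteal replicate 3 it was 0.43 (adjusted p = 0.856), and with the other libraries left out in turn it ran from 1.06 to 1.79. An effect of up to 7.29-fold lies within the interval, so the data do not show that the stages are alike in SOCS3.

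Some immediate early genes, a class that responds within minutes to signals and to the handling of tissue, had a pattern close to that of SOCS3. By the root mean square difference of log2 CPM, centred over the 6 libraries, the gene most like SOCS3 among 10713 genes compared was JUNB (0.17), then ZFP36 (0.32), CCDC3 (0.38), MT1X (0.40) and GIMAP8 (0.41), where the median gene was at 1.13. JUNB gave 21.5, 30.1 and 84.5 CPM in early luteal against 23.7, 28.7 and 11.3 CPM in post-ovulatory replicates, and its 6 libraries fell in the same order as those of SOCS3. The count ratio of SOCS3 to JUNB within a library stayed between 0.702 and 1.04. JUNB was picked for its likeness over these same values, so the order and the ratio are not separate results. ZFP36, an mRNA decay factor of the same response, gave 46.7, 71.7 and 325 against 70.1, 71.4 and 38.4 CPM, and its log2 fold change was 1.30 with all libraries and -0.032 without early luteal replicate 3.

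Over the list of 16 immediate early genes, the summed level was 572, 1536 and 2167 CPM in early luteal against 780, 1104 and 438 CPM in post-ovulatory replicates. This sum was highest and lowest in the same libraries as SOCS3, but single genes differed. Of the 14 tested, 5 were highest in early luteal replicate 3 and lowest in post-ovulatory replicate 3, as SOCS3 was, namely FOS, FOSB, JUN, JUNB and ZFP36. EGR2 was the reverse, highest in post-ovulatory replicate 3 and lowest in early luteal replicate 3, and EGR1 was highest in post-ovulatory replicate 2. Of the 14 genes 10 had a log2 fold change above 0, with a median of 0.95, and 0 were called (edgeR; 1, ATF3, at an unadjusted p under 0.05, where 7.11% of all genes were). Without early luteal replicate 3 the median was 0.27. ATF3 stood at 175 ± 129 against 47.9 ± 27.5 CPM, BTG2 at 36.0 ± 26.5 against 11.2 ± 6.84 CPM, JUN at 324 ± 134 against 189 ± 41.2 CPM and FOS at 245 ± 161 against 99.03 ± 73.2 CPM, all with overlapping stages. The summed level of 8 smooth muscle markers was likewise highest in early luteal replicate 3 (999, 6538 and 9365 CPM in early luteal against 3275, 5641 and 2889 CPM in post-ovulatory replicates). The part of either in the SOCS3 values was not tested.

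**Figure D3:**
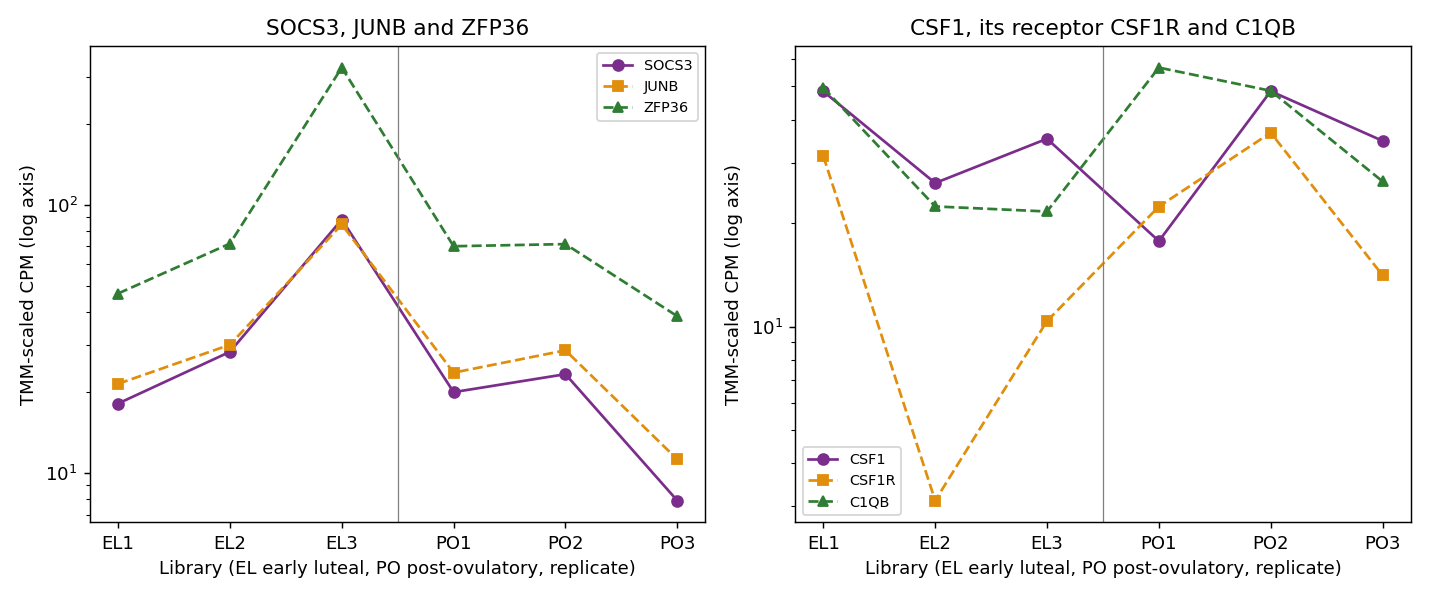
TMM-scaled CPM (log axes) in early luteal (EL) and post-ovulatory (PO) replicates 1 to 3, the lines only joining points of a gene. Left, SOCS3, JUNB and ZFP36 share the peak in early luteal replicate 3 and the lowest value in post-ovulatory replicate 3; right, CSF1, CSF1R and C1QB, where CSF1R drops to 3.12 CPM in early luteal replicate 2.

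The other inhibitors of the path had no shared direction. Of 8 such genes 0 were called (edgeR; 0 at an unadjusted p under 0.05), 3 had a log2 fold change above 0 and 5 below, and the median was -0.077. SOCS2 gave 12.1, 15.4 and 12.5 CPM in early luteal against 10.3, 9.09 and 9.11 CPM in post-ovulatory replicates (log2 fold change 0.49 ± 0.37; adjusted p = 0.779). Early luteal lay above in all libraries, as in 7.61% of all genes tested. CISH, a target of STAT5, had early luteal below in all libraries, at 5.22, 0.813 and 6.32 against 10.5, 6.95 and 6.75 CPM (-0.95 ± 0.71; adjusted p = 0.778), a pattern that 9.57% of all genes tested show. Without early luteal replicate 2 the log2 fold change of CISH was -0.49. SOCS1 was at 4.38 CPM or less in every library. PIAS1 stood at 130 ± 40.4 against 83.4 ± 13.6 CPM (adjusted p = 0.692), with overlap. PIAS3 (29.1 ± 7.55 against 32.8 ± 3.75 CPM), PTPN1 (38.1 ± 6.53 against 42.4 ± 4.51 CPM), PTPN2 (69.4 ± 34.3 against 69.3 ± 4.32 CPM) and PTPN6 (35.3 ± 17.8 against 31.3 ± 0.958 CPM) overlapped between the stages.

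Genes that STAT3 is known to regulate were divided between the directions. Of 32 listed, 26 had a row, 21 were tested and 0 were called (edgeR; 2 at an unadjusted p under 0.05, where 7.11% of all genes were). Of the 21, 9 had a log2 fold change above 0 and 12 below, with a median of -0.13. MCL1, a survival factor of the BCL2 family, gave 375, 351 and 398 CPM in early luteal against 233, 238 and 261 CPM in post-ovulatory replicates (log2 fold change 0.62 ± 0.24; unadjusted p = 0.0306, adjusted p = 0.685). BCL6, a transcriptional repressor, gave 58.3, 99.6 and 80.9 against 25.9, 52.4 and 46.2 CPM (0.94 ± 0.34; adjusted p = 0.68). In MCL1 and BCL6 all early luteal libraries lay above all post-ovulatory ones. These were 2 of the 21, and 2 others lay below throughout, where 7.61% of all genes tested lay above and 9.57% below. VEGFA, the angiogenic growth factor, lay the other way, at 30.3, 6.10 and 17.6 against 33.4, 45.0 and 43.2 CPM (-1.16 ± 0.52; adjusted p = 0.685), and was 1 of those 2, beside BCL2L1. Without early luteal replicate 2 its log2 fold change was -0.76. HIF1A, the hypoxia factor, stood at 144 ± 87.6 against 171 ± 54.4 CPM and overlapped.

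**Figure D4:**
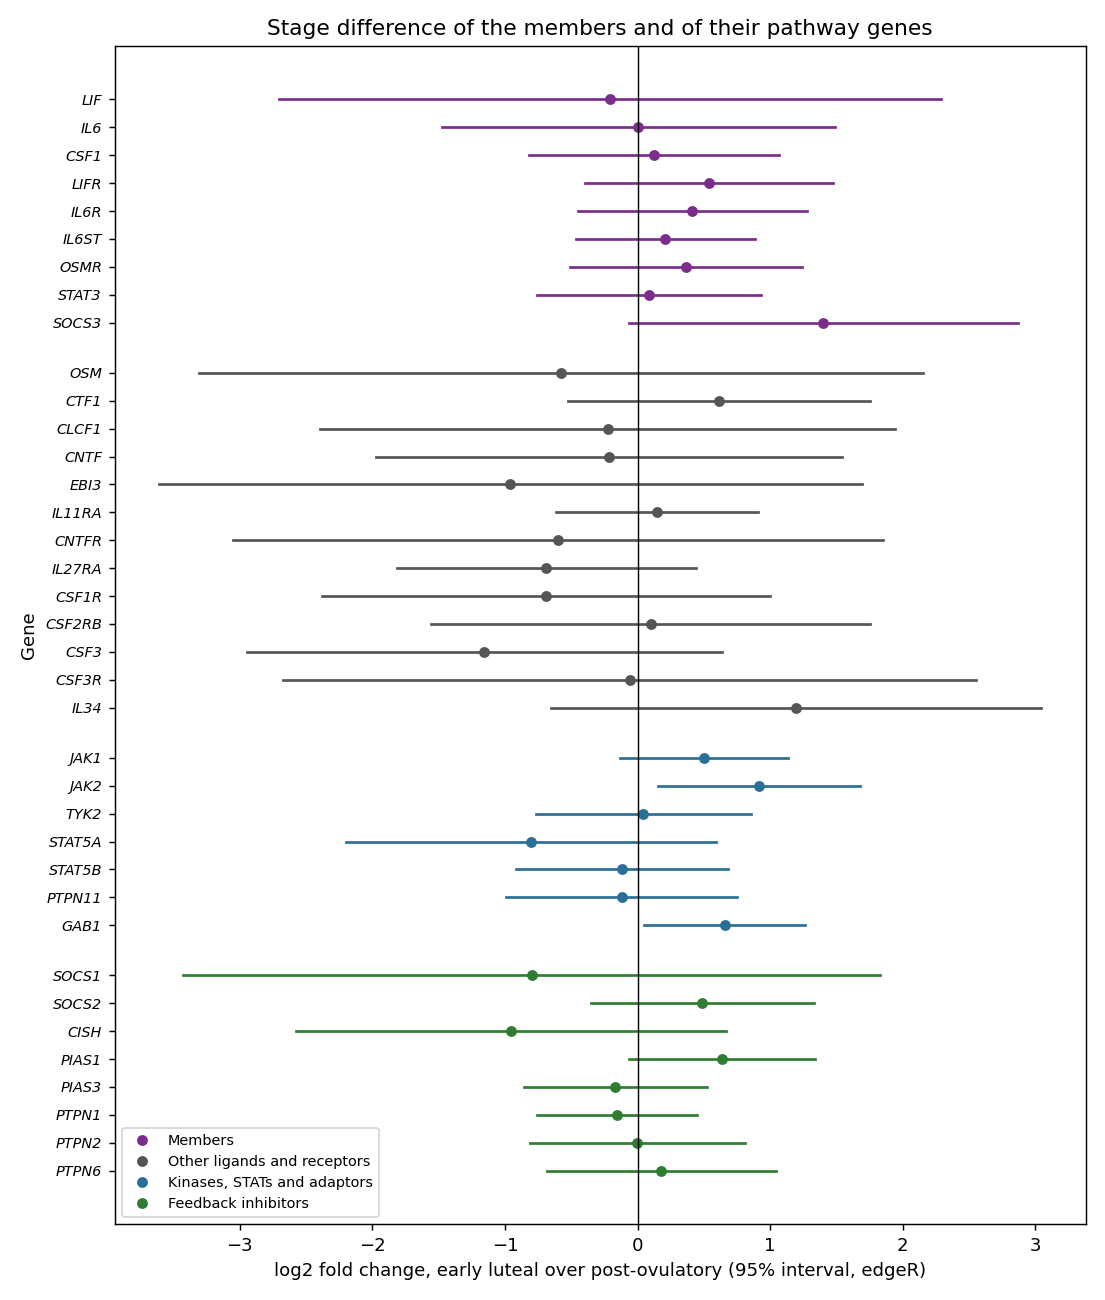
Log2 fold change, early luteal over post-ovulatory, with its 95% interval from edgeR (horizontal axis) for 9 members, 13 other ligands and receptors, 7 kinases, STATs and adaptors, and 8 feedback inhibitors (vertical axis). The intervals of JAK2 and GAB1 alone lie clear of 0, without adjustment for the genes tested, and those of OSM, EBI3, SOCS1 and CSF3R are the widest.

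Among the colony stimulating factors, CSF1 (ENSSSCG00000037449; chr4:110178466-110198232) gave 48.3, 26.1 and 35.2 CPM in early luteal against 17.7, 48.4 and 34.7 CPM in post-ovulatory replicates. The lowest and the highest library were both post-ovulatory, and the early luteal ones lay between. The log2 fold change was 0.13 ± 0.41 (95% interval -0.82 to 1.07; edgeR, adjusted p = 0.952). It was 0.32 without early luteal replicate 2 and -0.19 without post-ovulatory replicate 1. The genes most like CSF1 over the 6 libraries were DAGLA (root mean square difference 0.11), CNKSR1 (0.11), ELMO2 (0.14), CEBPD (0.16) and ARRDC1 (0.16), where the median gene was at 0.70. CEBPD, which is on the list of STAT3 targets, gave 123, 74.0 and 86.6 against 56.7, 117 and 79.8 CPM.

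The receptor CSF1R, a marker of macrophages, gave 31.3, 3.12 and 10.4 CPM in early luteal against 22.3, 36.6 and 14.1 CPM in post-ovulatory replicates. The 2 lowest libraries were early luteal, but early luteal replicate 1 was second only to post-ovulatory replicate 2. Its log2 fold change was -0.69 ± 0.74 (edgeR, adjusted p = 0.837). It was -0.22 with early luteal replicate 2 left out and -1.82 with early luteal replicate 1 left out. Over 16 macrophage markers, which include CSF1R, the summed level was 296, 106 and 120 CPM in early luteal against 262, 291 and 145 CPM in post-ovulatory replicates. Of 15 tested, 13 had a log2 fold change below 0 and 0 were called (edgeR; 0 at an unadjusted p under 0.05). The median was -0.48. With single libraries left out it ran from -1.01 (early luteal replicate 1) to -0.0076 (early luteal replicate 2), and it was -0.16 for early luteal replicate 3 and -0.14 for post-ovulatory replicate 2. Their part in the CSF1 values was not tested. MARCO was at 0.129 CPM or less in every library.

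Of single macrophage markers, CD163, a scavenger receptor, gave 13.7, 2.03 and 1.46 CPM in early luteal against 32.6, 13.9 and 15.7 CPM in post-ovulatory replicates, with early luteal below throughout, as in 9.57% of all genes tested (log2 fold change -1.84 ± 0.85; edgeR, adjusted p = 0.685). The nearest libraries were 13.7 CPM in early luteal replicate 1 and 13.9 CPM in post-ovulatory replicate 2, and the log2 fold change ran from -3.56 (without early luteal replicate 1) to -1.36 (without post-ovulatory replicate 1). C1QB (31.2 ± 15.9 against 43.9 ± 15.6 CPM), C1QC (30.4 ± 18.1 against 34.5 ± 14.5 CPM) and MSR1 (3.39 ± 1.79 against 1.60 ± 1.13 CPM) overlapped. IL34, the second ligand of CSF1R, gave 11.5, 1.76 and 2.86 CPM against 2.01, 3.66 and 1.47 CPM. Its log2 fold change of 1.20 ± 0.81 (adjusted p = 0.761) rested on early luteal replicate 1, and was 0.0029 without that library.

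CSF2 (ENSSSCG00000023737; chr2:134354724-134357155) had 5, 0 and 0 counts in early luteal against 1, 2 and 4 counts in post-ovulatory replicates, 5 against 7 counts in all. No library went above 0.322 CPM. The 0 counts allow up to 0.406 CPM in early luteal replicate 2 and 0.199 CPM in early luteal replicate 3, so a difference in CSF2 was not detectable at this depth. CSF2RB, the signalling chain of its receptor, gave 4.06, 7.99 and 1.40 CPM in early luteal against 4.69, 5.56 and 2.27 CPM in post-ovulatory replicates. Its log2 fold change was 0.099, and -0.60 without early luteal replicate 2; CSF2RA was not analysed here. CSF3, which encodes G-CSF, gave 3.67, 1.22 and 1.13 CPM against 1.41, 5.18 and 6.94 CPM, overlapping because early luteal replicate 1 lay above post-ovulatory replicate 1 (log2 fold change -1.15 ± 0.78; edgeR, adjusted p = 0.761). With single libraries left out this ran from -1.92 (early luteal replicate 1) to -0.68 (post-ovulatory replicate 3). Its receptor gene CSF3R, a marker of neutrophils, was at 2.25 CPM or less.

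The genes most like LIF over the 6 libraries shared its low value in early luteal replicate 2. They were chosen by their pattern over these libraries, so that likeness is not a separate result. They were AGXT2 (root mean square difference 0.24), FGD2 (0.26), KIFC3 (0.27), PLXND1 (0.28) and CDC42EP1 (0.28), of 10714 genes compared, where the median gene was at 1.47. AGXT2 gave 18.7, 0.406 and 5.05 CPM in early luteal against 7.45, 10.1 and 9.21 CPM in post-ovulatory replicates. KIFC3 gave 13.1, 0.271 and 4.79 against 4.47, 9.35 and 8.12 CPM. In both genes early luteal replicate 1 was the highest library and early luteal replicate 2 the lowest, as for LIF. The summed level of 11 markers of T and natural killer cells was also highest in early luteal replicate 1 and lowest in early luteal replicate 2 (94.2, 19.5 and 24.0 CPM in early luteal against 68.4, 83.2 and 37.0 CPM in post-ovulatory replicates). The sums over the macrophage markers (296 and 106 CPM) and the neutrophil markers (647 and 281 CPM, nearly all LCN2) had the same highest and lowest libraries. Those over the endothelial, stromal, smooth muscle, secretory and ciliated epithelial markers did not. In a sum, the genes with the most counts weigh most. By the mean of centred log2 CPM, the endothelial markers were also lowest in early luteal replicate 2 (-1.24), but highest in post-ovulatory replicate 2 (0.859). The part of any of these in the LIF values was not tested.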

How the data were processed

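For each of 6 pig ampulla libraries, the authors deposited raw read counts by Ensembl gene. Stranded KAPA mRNA libraries were read on a NextSeq2000, per the labels' protocols. The submitters' processing notes name STAR, Trim Galore, FastQC 0.11.4 and Sscrofa11.1; counting tool and strand setting: not given in the sources used here. The header lacks a tab, so columns were taken by position.

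Symbols came from a table naming 15623 of the genes, positions from RefSeq (Sscrofa11.1; 9 of 10 members found by symbol). Differences were tested with edgeR 4.0.16 (R 4.3.3; quasi-likelihood, robust, TMM, filterByExpr, Benjamini-Hochberg over 17920 genes, threshold 0.05, two-sided). SE were derived from the fold change and F statistic; log2 CPM used a prior count of 2. Without transcript lengths, counts, CPM and count ratios of different genes do not rank those genes by transcript level. The procedure was tested on simulated data with 50 genes changed at each size. It called 1 at 2-fold, 18 at 4-fold, 31 at 8-fold and 41 at 16-fold, and 8 of 17179 unchanged genes. Most 2-fold differences would thus be missed. DESeq2 1.42.0, limma 3.58.1 voom, other scalings and filters, a replicate block and leaving out each library were alternatives.

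Members and lists were chosen with earlier results of these data known. The rule names all members, all genes of the short pathway lists with a row, of longer lists the 3 with the lowest p and the 2 with the highest mean CPM, and the 5 genes closest in pattern to LIF, SOCS3 and CSF1 (mean of at least 5 CPM). EPCAM, FOXJ1, MYH11, MARCO, LCN2, MPO, EGR1, EGR2, FOSB, BCL2L1, HOXA10 and HOXA11, genes at 0 in 1 library and count ratios were added after values were seen. Of the pathway lists, 2 genes are not reported here and were left out of the counts and medians.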

Additional observations from a re-analysis of the deposited data

How the results depend on the processing

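Over all genes, 0 were called in the main test and 8 with no filter on low counts, 175 with DESeq2 and 10 with limma voom and sample quality weights. None of the members was called under any of the 15 alternatives (0 to 0 without each library), and their median log2 fold change ran from 0.15 to 0.47 without each library. Same-numbered libraries correlated at 0.052, -0.082 and 0.13 in their deviations, and 2 of 6 libraries correlated best with their own number. With so few libraries, these values cannot decide whether the numbers pair the libraries. With the replicate block 0 genes and 0 members were called, and SOCS3 had a log2 fold change of 1.11 (edgeR, adjusted p = 0.85). With voom and sample quality weights SOCS3 had 2.34 (adjusted p = 0.192). The largest of those weights went to post-ovulatory replicate 3 (2.70) and early luteal replicate 3 (2.05), the lowest and the highest library for SOCS3. Signs turned as follows, given as log2 fold changes. With the replicate block they were -0.0199 for STAT3, -0.12 for CSF2RB and -0.0023 for TYK2. With voom they were -0.028 for STAT3 and -0.10 for CSF2RB. With voom and quality weights they were -0.095 for IL6, 0.066 for CLCF1, 0.43 for CNTF, -0.44 for CSF2RB, 0.29 for CSF3R, 0.034 for STAT5B, 0.12 for C1QC and 0.10 for FGD2. IL6 was at -0.0455 with no filter and -0.0065 with DESeq2, CSF3R at 0.0023 with library totals alone, and PTPN2 at 0.036 with DESeq2 size factors, 0.062 with upper quartile scaling and 0.022 with a filter of 1 CPM in 3 libraries. The cause was not tested. Without each library in turn the ranges of genes that changed sign were -1.53 to 0.34 (LIF), -0.31 to 0.45 (IL6), -0.19 to 0.47 (CSF1), -0.14 to 0.41 (STAT3), -0.64 to 0.30 (CLCF1), -0.56 to 0.28 (CNTF), -0.28 to 0.32 (IL11RA), -0.60 to 0.52 (CSF2RB), -1.30 to 0.58 (CSF3R), -0.13 to 0.33 (TYK2), -0.49 to 0.13 (STAT5B), -0.58 to 0.15 (PTPN11), -0.36 to 0.0037 (PIAS3), -0.47 to 0.23 (PTPN2), -0.28 to 0.45 (PTPN6), -0.82 to 0.084 (HIF1A), -0.77 to 0.13 (C1QC), -1.66 to 0.42 (AGXT2), -1.03 to 0.41 (FGD2), -1.48 to 0.30 (KIFC3), -0.032 to 1.73 (ZFP36), -0.16 to 0.51 (DAGLA), -0.18 to 0.42 (CNKSR1), -0.093 to 0.45 (ELMO2), -0.064 to 0.46 (CEBPD) and -0.094 to 0.45 (ARRDC1). Depth limits CSF2, which had 5 counts over the early luteal and 7 over the post-ovulatory libraries; for LIF and IL6 the spread between libraries went beyond counting error.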

Other observations

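Of 10 markers of stromal cells, 9 had a row and were tested, and all 9 had a log2 fold change below 0 (median -0.76). None was called by edgeR; 4 had an unadjusted p under 0.05 with early luteal lower, where 3.54% of all genes did, and DESeq2, which called 0.986% of all genes, called 2, COL1A1 (adjusted p = 0.00728) and PI16 (adjusted p = 0.0322). COL1A1, a collagen chain, gave 91.3, 135 and 104 CPM in early luteal against 497, 597 and 184 CPM in post-ovulatory replicates. COL3A1, another collagen chain, gave 135, 199 and 172 against 619, 637 and 222 CPM. FBLN1 overlapped, at 486, 253 and 531 against 484, 629 and 455 CPM. This list was picked for description after its values were seen.

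LCN2, a secreted iron-binding protein listed here as a neutrophil marker, stood at 643, 281 and 508 CPM in early luteal against 603, 510 and 391 CPM in post-ovulatory replicates, with overlapping stages. The other neutrophil markers with a row were at 2.25 CPM or less in every library, the most in CSF3R, and MPO had 0 counts throughout.

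Of 12 genes of the response to LIF known in the mouse uterus, 10 had a row, 4 passed the filter and 0 were called (edgeR; 0 at an unadjusted p under 0.05), with a median log2 fold change of -0.30. HOXA11, a patterning gene of the uterus, had 0 counts in all 6 libraries, and HOXA10 was at 0 in all but early luteal replicate 2, where it stood at 0.948 CPM from 7 counts.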
